A study of Homo sapiens with 8 samples.

Results

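The genes of the cholesterol biosynthesis and SREBP pathway were followed in cells kept with sodium benzoate (SB) for 24 h. They are 32 genes, taken from a list by name, and all 32 have a row in the authors' expression table of 14526 genes. They comprise 8 genes of the mevalonate steps, 12 of the squalene and sterol steps, 6 grouped as SREBP regulators, and 6 of fatty acid synthesis and desaturation. The group of SREBP regulators holds SREBF1 and SREBF2, which encode the SREBP transcription factors, SCAP, INSIG1, INSIG2 and the sterol carrier STARD4. RNA was sequenced from 4 control replicates and from 4 replicates given SB at 10 mM, all grown in DMEM with serum. The study used SB to raise benzoylation of lysines and asked which genes differ in expression. The labels name the line as HepG2, a line from a human liver carcinoma, for both groups, and name no further agent for the controls. The study's methods call the 4 libraries of each group biological replicates, and no source used here says whether they came from separate culture days, so the p-values measure the spread between these libraries.

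Cholesterol is made from acetyl-CoA. The mevalonate steps build isoprenoid units, which are joined to squalene, closed into lanosterol and trimmed to cholesterol. SREBP-2, encoded by SREBF2, drives most of these genes and SREBP-1, encoded by SREBF1, drives more of the fatty acid genes. When sterols are scarce, the escort protein SCAP carries the SREBP precursors from the endoplasmic reticulum to the Golgi, where proteases release the active factors, and when sterols are plentiful the INSIG proteins hold SCAP back. The liver is a main site of both pathways.

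The promoters of 5 genes are shown as reference for the changes given below, those of SREBF2, which encodes the factor itself, of HMGCS1, INSIG1 and LSS, which rose, and of FDPS, which fell. Each is the 250 bases before the RefSeq start site on GRCh38.p14, read 5′ to 3′ on the gene's own strand. Capitals mark matches, on either strand, to the sterol regulatory element (SRE, TCACNCCAC), the E-box (CACGTG), the CCAAT box (CCAAT, or ATTGG on the other strand) and the GC box (GGGCGG, or CCGCCC on the other strand). The windows lie at chr22:41832855-41833104 (plus strand) for SREBF2, chr5:43313413-43313662 (minus strand) for HMGCS1, chr7:155297628-155297877 (plus strand) for INSIG1, chr21:46228775-46229024 (minus strand) for LSS and chr1:155308616-155308865 (plus strand) for FDPS.
SREBF2: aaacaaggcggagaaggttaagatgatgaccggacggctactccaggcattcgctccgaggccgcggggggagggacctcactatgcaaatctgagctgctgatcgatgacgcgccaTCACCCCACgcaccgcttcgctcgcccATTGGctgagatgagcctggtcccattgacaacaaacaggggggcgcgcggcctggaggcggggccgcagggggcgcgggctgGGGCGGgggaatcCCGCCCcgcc
HMGCS1: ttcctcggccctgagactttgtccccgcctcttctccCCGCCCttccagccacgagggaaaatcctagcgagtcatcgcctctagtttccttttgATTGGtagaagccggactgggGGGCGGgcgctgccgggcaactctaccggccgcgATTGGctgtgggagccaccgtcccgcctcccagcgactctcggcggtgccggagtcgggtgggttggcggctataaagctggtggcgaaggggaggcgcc
INSIG1: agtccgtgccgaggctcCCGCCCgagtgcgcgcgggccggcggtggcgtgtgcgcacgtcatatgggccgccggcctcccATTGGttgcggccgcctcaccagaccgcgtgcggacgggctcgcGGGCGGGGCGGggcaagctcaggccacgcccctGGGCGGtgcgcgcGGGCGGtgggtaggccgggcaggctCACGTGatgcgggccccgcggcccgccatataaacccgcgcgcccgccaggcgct
LSS: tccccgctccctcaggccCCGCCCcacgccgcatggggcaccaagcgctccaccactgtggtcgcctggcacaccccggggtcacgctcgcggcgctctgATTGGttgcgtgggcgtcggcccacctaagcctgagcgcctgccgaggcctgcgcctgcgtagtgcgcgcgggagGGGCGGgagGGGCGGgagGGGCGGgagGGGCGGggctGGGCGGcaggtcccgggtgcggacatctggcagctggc
FDPS: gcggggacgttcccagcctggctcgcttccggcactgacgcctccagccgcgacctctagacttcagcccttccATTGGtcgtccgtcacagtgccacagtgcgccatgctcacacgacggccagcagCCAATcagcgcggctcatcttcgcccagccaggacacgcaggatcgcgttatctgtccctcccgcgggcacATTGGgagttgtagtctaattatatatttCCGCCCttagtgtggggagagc
The SREBF2 window held the SRE letters 133 bases before the start site, with a CCAAT box 106 bases before it. HMGCS1 and LSS held CCAAT and GC boxes, and 5 of the 6 GC boxes of LSS lay between 75 and 38 bases before the start. INSIG1 held an E-box 55 bases before the start, and its GC boxes at 126 and 121 bases overlap by their last and first letter. FDPS held 3 CCAAT boxes.

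RefSeq windows of 300 bases, from 250 before to 50 after the start site, were found for 28 of the 32 genes, and ACAT2, FDFT1, SQLE and FASN were not matched. For 8 genes more than 1 window was listed, and a gene was counted when any of its windows held the letters. The SRE was found in 1 of the 28, SREBF2, which is 3.57%, against 1.39% of all 27305 genes with a window and 1.4% of those in the expression table. CCAAT boxes were found in 20, or 71.4%, against 39.7% of all genes with a window and 43.1% of those in the table. The GC box was found in 26, or 92.9%, against 48.3% and 76.7%. E-boxes were found in LSS, SC5D, SCAP and INSIG1, 14.3% of the 28, against 8.77% and 12.5%, and that of LSS lies outside the bases shown. Of the 14 genes with a window that were higher in SB-treated cells, 10 held a CCAAT box. So did 3 of the 5 that were lower and 7 of the 9 that were not called. A match is a description of the letters, and its absence says only that the letters are not in this window.

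The values are RPKM, the reads on a gene scaled to its length and to the size of the library. The libraries held between 37010925 and 44903333 reads on the 14526 genes, and each of the 32 genes had between 339 and 70944 reads in a library. The labelled cell type was checked against 20 hepatocyte markers, of which 17, albumin (ALB), AFP, TTR and HNF4A among them, have no row in the table used here. The study kept only genes above 1 CPM in 2 or more samples, so a gene without a row may have been below that level. The 3 with a row had sums between 4.67 and 6.02 RPKM in control and between 6.26 and 6.92 RPKM in SB-treated libraries. With 17 of the 20 without a row, the values do not bear out the labelled cell type. Of those with a row, CEBPA went from 4.73 ± 0.501 RPKM in control to 5.47 ± 0.321 RPKM in SB-treated libraries, and TF, the gene of transferrin, from 0.192 ± 0.0188 RPKM to 0.379 ± 0.0748 RPKM (SD, n = 4 each). Of 5 leukocyte markers 2 have a row, with sums between 2.09 and 3.14 RPKM over all libraries, and of 6 fibroblast markers 3 have a row, with sums between 6.13 and 8.32 RPKM in control and between 6.07 and 6.29 RPKM in SB-treated libraries. Within that sum the groups did not overlap for COL3A1, at 2.49 ± 0.226 RPKM in control and 1.5 ± 0.0944 RPKM in SB-treated libraries, and for LUM, at 0.347 ± 0.145 RPKM and 0.610 ± 0.0173 RPKM (SD, n = 4 each). PTPRC, CD14 and CSF1R have no row, nor have COL1A2, DCN and PDGFRB. Their part in the results was not tested. In RNA from whole cultures, fewer cells of a type and less RNA per cell cannot be told apart.

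Control replicate 1 stood apart from the other controls. It was the lowest of the 4 controls for 17 of the 32 genes and the highest for 12, and over all genes it was the lowest or the highest for 82.2%. Among the 32 genes it had deviations from the mean of controls 2 to 4 between -0.57 for FASN and 0.38 for IDI1 on the log2(RPKM + 1) scale. Across the 32 genes this deviation had a Pearson correlation of -0.905 with the GC content of the longest GENCODE transcript, and across the 13290 genes with a GC value it was -0.70. The points share 1 library. The GC-rich FASN, LSS and TM7SF2 were low in this library, and the AT-rich IDI1, SC5D and ELOVL6 were high. The change with SB had a correlation of 0.251 with GC content over the 32 genes and of 0.127 over all genes. Both use all 4 controls, so the deviation of control replicate 1 enters them, and they were not repeated without it. The part of GC content in the results was not tested, and values without control replicate 1 are given beside the results that it moves most.

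**Figure D1:**
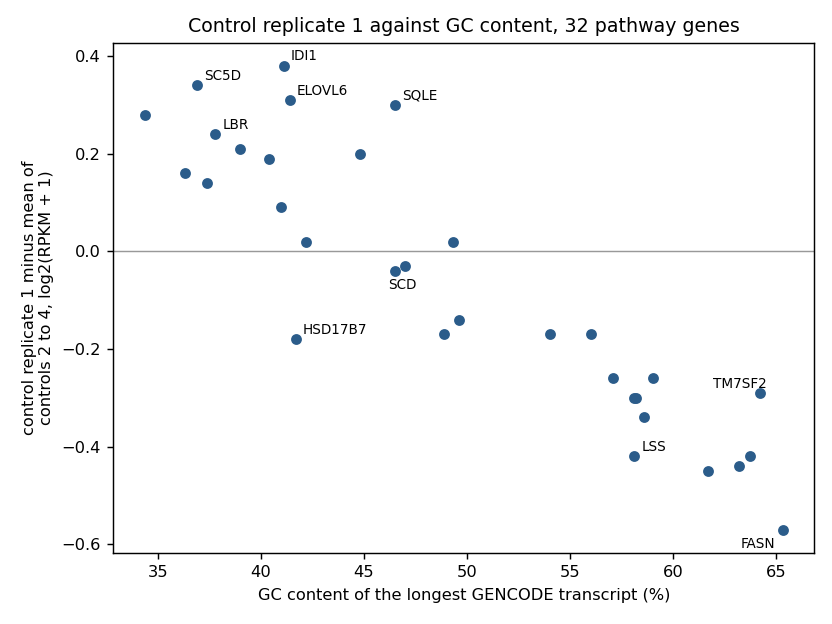
Deviation of control replicate 1 from the mean of control replicates 2 to 4, on the log2(RPKM + 1) scale, against the GC content in percent of the longest GENCODE transcript, 1 point for each of the 32 genes. The points fall from the AT-rich genes at the upper left to FASN at -0.57 at the lower right.

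Of the 32 genes, 16 were higher and 7 lower in SB-treated cells at an adjusted p-value below 0.05 (limma on log2(RPKM + 1), Benjamini-Hochberg over all 14526 genes), and 9 were not called. The change was therefore divided in direction, with HMGCS1, DHCR7, LSS, SREBF2 and INSIG1 at the upper end and ACAT2, FDPS and TM7SF2 at the lower end. Over all genes 33% were higher and 32.6% lower, so that 50% of the pathway genes against 33% were higher and 21.9% against 32.6% were lower. The median log2 fold change of the 32 genes was 0.12, against 0.00 over all genes. The 4 genes HMGCS1, DHCR7, LSS and SREBF2 were higher by at least 0.5 on the log2 scale, where 5.12% of all genes were, and 0 were lower by as much, where 5.45% of all genes were. That background depends on the pseudocount: with a pseudocount of 0.1, 5 of the 32 and 11.1% of all genes were higher by at least 0.5, and with voom on the recovered reads 5 of the 32 and 12.5% of all genes. The 4 SB-treated values lay above all 4 control values for 12 genes and below them for 6, against 31% and 30.5% of all genes. Without control replicate 1, 17 were higher, where 37.6% of all genes were, and 7 were lower, where 37.9% were. Fold changes are on the log2(RPKM + 1) scale throughout, which understates the change of genes with few RPKM.

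**Figure D2:**
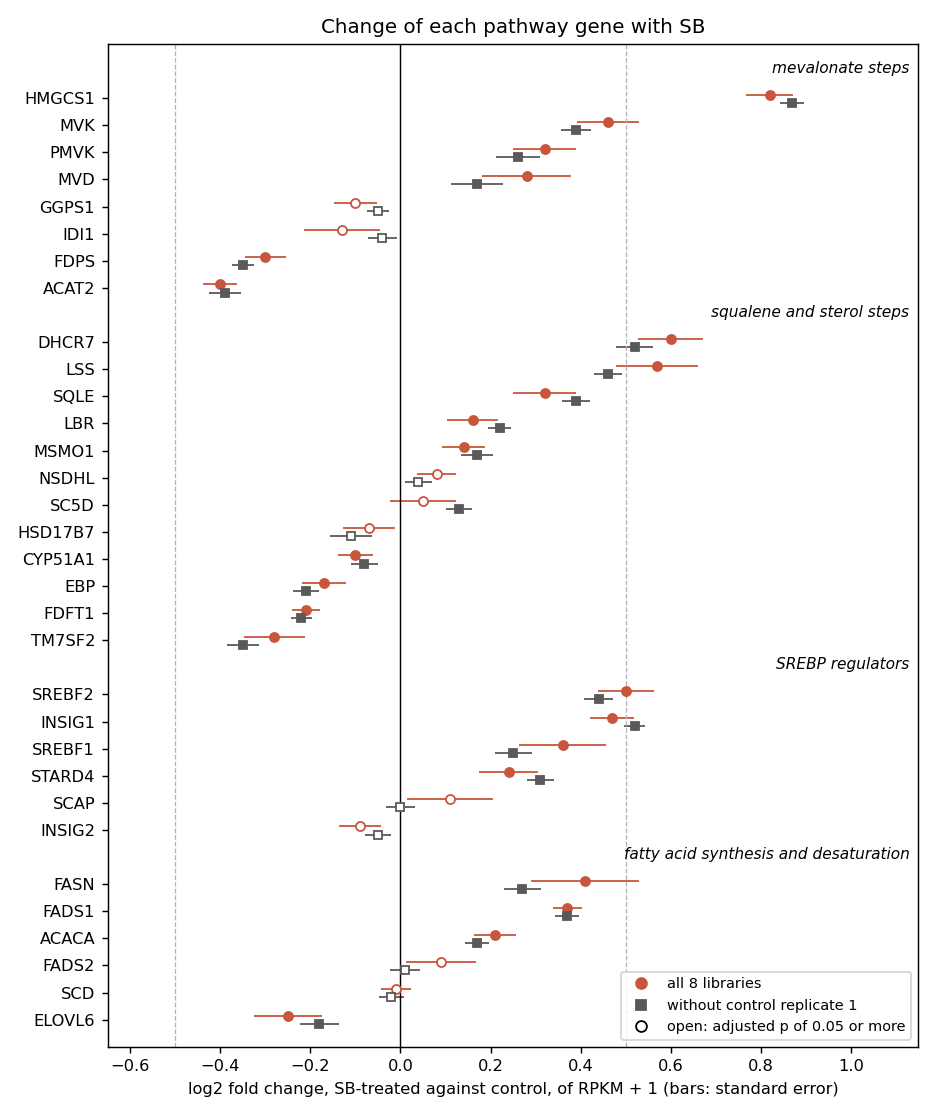
Log2 fold change of RPKM + 1, SB-treated against control, for the 32 genes by role, from all 8 libraries (red circles) and without control replicate 1 (grey squares), with bars for the standard error and open symbols for an adjusted p-value of 0.05 or more. HMGCS1 lies farthest to the right at 0.82 and ACAT2 farthest to the left at -0.40, and dashed lines mark 0.5 in either direction.

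Among the 6 genes grouped as SREBP regulators, 4 were higher and 0 were lower, with a median log2 fold change of 0.30. Over all genes 33% were higher and 32.6% lower. The 4 were the factor genes SREBF1 and SREBF2, INSIG1 and the sterol carrier STARD4, while SCAP and INSIG2 were not called. SREBF2, the gene of SREBP-2, read 26.7, 33.2, 30.5 and 32.6 RPKM in control and 44.1, 44, 43.6 and 43.4 RPKM in SB-treated libraries. The groups did not overlap, and the SB-treated values lay within 1 RPKM of each other. SREBF2 rose from 30.8 ± 2.94 RPKM to 43.8 ± 0.331 RPKM (SD, n = 4 each), a log2 fold change of 0.50 (limma adjusted p = 7.81e-05, standard error 0.062). Without control replicate 1 the log2 fold change was 0.44.

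INSIG1, a retention factor of SCAP and itself an SREBP target, read 54.0, 47.3, 46.9 and 46.9 RPKM in control and 68.9, 66.5, 67.5 and 68.4 RPKM in SB-treated libraries. All 4 SB-treated values were above the highest control, which was control replicate 1. Its log2 fold change was 0.47 (limma adjusted p = 2.62e-05, standard error 0.049), and 0.52 without that replicate. INSIG2, the related retention factor that is not an SREBP target in most cells, was at 9.35 ± 0.595 RPKM in control and at 8.72 ± 0.267 RPKM in SB-treated cells (SD, n = 4 each), with overlapping groups (log2 fold change -0.09, limma adjusted p = 0.113). The log2 fold change was -0.05 without control replicate 1, its highest value.

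SREBF1, the gene of SREBP-1, read 11.4, 16, 16.2 and 15.5 RPKM in control and 17.7, 19.8, 19.7 and 19.3 RPKM in SB-treated libraries. The groups did not overlap, and control replicate 1 was the low value. SREBF1 rose by a log2 fold change of 0.36 (limma adjusted p = 0.00854, standard error 0.097), and by 0.25 without control replicate 1. STARD4, a carrier of sterols between membranes, rose by 0.24 (limma adjusted p = 0.00942), although control replicate 1 at 9.48 RPKM lay among the SB-treated values of 9.26 to 9.99 RPKM. The escort SCAP was not called: it read between 26.1 and 36.8 RPKM in control and between 34.4 and 37.2 RPKM in SB-treated libraries, and its log2 fold change of 0.11 (limma adjusted p = 0.335) was -0.00 without control replicate 1.

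Of the 8 genes of the mevalonate steps, 4 were higher and 2 lower, with a median log2 fold change of 0.09. HMGCS1, the cytosolic synthase that joins acetyl-CoA to acetoacetyl-CoA, read 11.6, 9.87, 10.1 and 9.80 RPKM in control and 19.6, 18.8, 18.6 and 18.8 RPKM in SB-treated libraries. The lowest SB-treated value was above the highest control value, and the rise was the largest of the 32 genes. HMGCS1 went from 10.3 ± 0.847 RPKM to 18.9 ± 0.440 RPKM (SD, n = 4 each), a ratio of 1.83 and a log2 fold change of 0.82 (limma adjusted p = 1.54e-06, standard error 0.052). Without control replicate 1, in which it was highest among the controls, the log2 fold change was 0.87.

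The 3 genes that turn mevalonate into isopentenyl diphosphate rose as well. MVK, mevalonate kinase, went from 7.80 ± 0.871 RPKM to 11.1 ± 0.449 RPKM (SD, n = 4 each) with no overlap (log2 fold change 0.46, limma adjusted p = 2.80e-04). Without control replicate 1 the log2 fold change of MVK was 0.39. PMVK, phosphomevalonate kinase, rose by a log2 fold change of 0.32 (limma adjusted p = 0.0026), again with no overlap. MVD, the decarboxylase, rose by 0.28 (limma adjusted p = 0.0325) with overlapping groups, between 14.4 and 21.4 RPKM in control and between 20.7 and 23.4 RPKM in SB-treated libraries. The call of MVD was lost without control replicate 4 or without SB-treated replicate 2, 3 or 4, with log2 fold changes between 0.25 and 0.29 and adjusted p-values between 0.0535 and 0.081. Its log2 fold change was 0.17 without control replicate 1, in which it was lowest.

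ACAT2, the cytosolic thiolase that makes acetoacetyl-CoA at the step before HMGCS1, moved the other way. It read 35.7, 37.0, 33.4 and 35.4 RPKM in control and 26.8, 26.3, 26.4 and 26.9 RPKM in SB-treated libraries. The groups were far apart, and control replicate 1 lay within the other controls. ACAT2 fell by 0.40 on the log2 scale (limma adjusted p = 1.50e-05, standard error 0.038). Its annotated span shares 615 bases with TCP1, a chaperonin subunit read at 283 RPKM in control and 201 RPKM in SB-treated cells, and 237 bases with SOD2, at 75.4 and 66.4 RPKM. The strand setting of the counting is not given in the sources used here, so reads from the shared bases cannot be told apart.

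FDPS, farnesyl diphosphate synthase, which feeds the sterol and the isoprenoid branches, read 76.1, 85.9, 84.2 and 86.6 RPKM in control and 67.2, 67.1, 66.0 and 67.9 RPKM in SB-treated libraries. All SB-treated values were below all control values. FDPS fell by 0.30 on the log2 scale (limma adjusted p = 2.44e-04), and by 0.35 without control replicate 1. IDI1, the isomerase of isopentenyl diphosphate, had a log2 fold change of -0.13 (limma adjusted p = 0.189), and of -0.04 without control replicate 1, which read 59.5 RPKM where the other controls read between 44.6 and 46.6 RPKM. GGPS1, which makes the geranylgeranyl group for protein prenylation, was at 42.8 ± 2.96 RPKM and at 39.8 ± 0.318 RPKM (SD, n = 4 each), with no overlap but no call (log2 fold change -0.10, limma adjusted p = 0.0893), and the log2 fold change was -0.05 without control replicate 1.

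**Figure D3:**
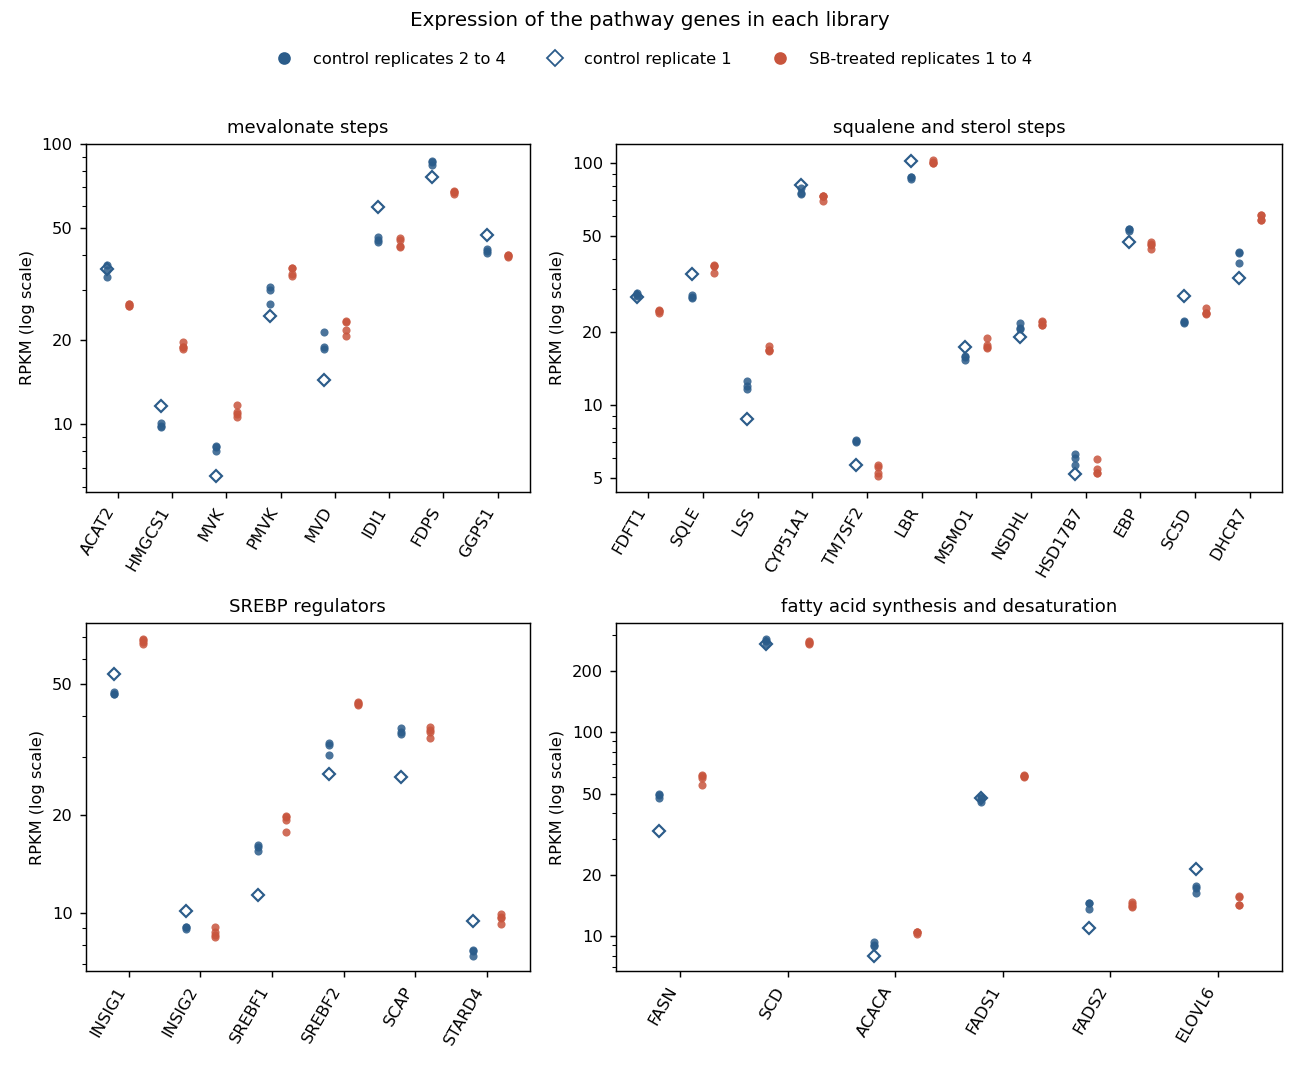
RPKM on a log axis of the 32 genes in each of the 8 libraries, in panels by role, with control replicates in blue, control replicate 1 as an open diamond, and SB-treated replicates in red. HMGCS1 (9.80 to 11.6 RPKM in control, 18.6 to 19.6 RPKM in SB-treated libraries) and ACAT2 (33.4 to 37.0 RPKM against 26.3 to 26.9 RPKM) separate in opposite directions.

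Of the 12 genes of the squalene and sterol steps, 5 were higher and 4 lower, with a median log2 fold change of 0.06. These are 41.7% and 33.3%, near the 33% and 32.6% of all genes. DHCR7, which reduces dehydrocholesterol to cholesterol, read 33.3, 42.4, 38.4 and 42.6 RPKM in control and 58.0, 60.9, 60.9 and 58.0 RPKM in SB-treated libraries. The groups did not overlap. DHCR7 rose from 39.1 ± 4.37 RPKM to 59.5 ± 1.68 RPKM (SD, n = 4 each), a log2 fold change of 0.60 (limma adjusted p = 6.77e-05, standard error 0.072), and 0.52 without control replicate 1.

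LSS, lanosterol synthase, which closes the sterol rings, read 8.69, 11.9, 11.6 and 12.5 RPKM in control and 16.6, 17.5, 16.8 and 16.8 RPKM in SB-treated libraries. The SB-treated values were close together and above every control. Its log2 fold change was 0.57 (limma adjusted p = 4.16e-04, standard error 0.091), and 0.46 without control replicate 1, the lowest control. SQLE, squalene epoxidase, read 34.7, 27.9, 28.4 and 27.7 RPKM in control and 37.4, 35.1, 37.9 and 37.5 RPKM in SB-treated libraries, so that control replicate 1 came within 1 RPKM of the lowest SB-treated value. SQLE rose by 0.32 on the log2 scale (limma adjusted p = 0.00288), and by 0.39 without control replicate 1.

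Smaller rises were found in LBR, a sterol reductase of the inner nuclear membrane (0.16, limma adjusted p = 0.0311), and in MSMO1, the methylsterol oxidase (0.14, limma adjusted p = 0.0268), both with overlapping groups. The LBR call was lost without any 1 of control replicates 2 to 4 or of the SB-treated replicates, with log2 fold changes between 0.13 and 0.16 and adjusted p-values between 0.056 and 0.0838, and it was 0.22 without control replicate 1. The MSMO1 call was lost without control replicate 2, 3 or 4 or SB-treated replicate 1 or 4, with log2 fold changes between 0.11 and 0.14 and adjusted p-values between 0.0574 and 0.0777.

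The 4 genes that were lower act at different steps. FDFT1, squalene synthase, which commits farnesyl diphosphate to sterols, went from 28.3 ± 0.479 RPKM to 24.3 ± 0.218 RPKM (SD, n = 4 each) with no overlap (log2 fold change -0.21, limma adjusted p = 2.26e-04). TM7SF2, the endoplasmic reticulum reductase for the same reaction as LBR, fell by 0.28 on the log2 scale (limma adjusted p = 0.00557). It read 5.62, 7.17, 7.01 and 7.09 RPKM in control and 5.51, 5.64, 5.06 and 5.24 RPKM in SB-treated libraries, so that the overlap rested on control replicate 1, without which it fell by 0.35. EBP, the sterol isomerase, fell by 0.17 (limma adjusted p = 0.0123) with overlapping groups, and was not called without the TMM scaling (log2 fold change -0.06, limma adjusted p = 0.292).

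CYP51A1, lanosterol demethylase, was lower by the smallest margin among the called genes, from 77.3 ± 3.13 RPKM to 72.1 ± 1.61 RPKM (SD, n = 4 each). Its log2 fold change was -0.10 (limma adjusted p = 0.0455), and the call was lost without control replicate 3 or any 1 SB-treated replicate, with values between -0.11 and -0.08 and adjusted p-values between 0.0675 and 0.125. It was also lost with a pseudocount of 0.1 (adjusted p = 0.0677) and turned to 0.00 without the TMM scaling. NSDHL and HSD17B7, which act in the removal of methyl groups from the sterol ring, and SC5D, a sterol desaturase, were not called, with log2 fold changes of 0.08, -0.07 and 0.05. Without control replicate 1 NSDHL was at 0.04 and HSD17B7 at -0.11 (limma adjusted p = 0.05), neither called. SC5D was called higher at 0.13 (limma adjusted p = 0.00189) without control replicate 1, which read 28.0 RPKM where the other controls read between 21.7 and 22.1 RPKM.

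Of the 6 genes of fatty acid synthesis and desaturation, 3 were higher and 1 was lower, with a median log2 fold change of 0.15. FASN, fatty acid synthase, read 32.7, 49.3, 50 and 47.6 RPKM in control and 55.0, 61.6, 60.8 and 59.4 RPKM in SB-treated libraries. The groups did not overlap, but control replicate 1 was far below the other controls. FASN rose by a log2 fold change of 0.41 (limma adjusted p = 0.0131, standard error 0.12), and by 0.27 without that replicate.

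FADS1, the desaturase of long polyunsaturated fatty acids that is also known as delta-5 desaturase, read 47.4, 47.6, 45.3 and 47.8 RPKM in control and 61.3, 60.9, 60.4 and 61.2 RPKM in SB-treated libraries. The groups were separated by a gap wider than either group's range. The log2 fold change was 0.37 (limma adjusted p = 8.89e-06, standard error 0.032), and the same without control replicate 1. ACACA, the cytosolic acetyl-CoA carboxylase that supplies malonyl-CoA, rose by 0.21 (limma adjusted p = 0.00282) with no overlap. ELOVL6, an elongase of saturated fatty acids, fell by 0.25 (limma adjusted p = 0.0146), from between 16.3 and 21.3 RPKM to between 14.2 and 15.7 RPKM, and was not called without the TMM scaling (log2 fold change -0.15, limma adjusted p = 0.0867). Without control replicate 1, its highest control at 21.3 RPKM, ELOVL6 fell by 0.18.

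SCD, the desaturase that makes oleate, was the most abundant of the 32 genes and was not called. It read 272, 281, 271 and 287 RPKM in control and 277, 272, 275 and 279 RPKM in SB-treated libraries, a log2 fold change of -0.01 (limma adjusted p = 0.82, standard error 0.033). FADS2, the neighbour of FADS1 on chromosome 11 whose annotated span shares 801 bases with it, had a log2 fold change of 0.09 (limma adjusted p = 0.302), and of 0.01 without control replicate 1.

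In control cells the pathway genes spread from HSD17B7 at 5.77 RPKM, at percentile 41.3 of all genes, to SCD at 277 RPKM, at percentile 98.9. After SCD came LBR at 90.4 RPKM, FDPS at 83.2 RPKM and CYP51A1 at 77.3 RPKM. FADS1, INSIG1 and IDI1 followed EBP at between 47.0 and 49.0 RPKM, and these 3 did not differ beyond their spread. With SB, DHCR7 moved from rank 11 to rank 7 of the 32 and HMGCS1 from 26 to 22, while ACAT2 moved from 12 to 16 and EBP from 5 to 9. Summed over the 8 mevalonate genes the level was 275 ± 1.19 RPKM in control and 265 ± 2.22 RPKM in SB-treated cells (SD, n = 4 each). Over the 6 genes grouped as SREBP regulators, SREBF1, SREBF2 and STARD4 among them, it was 145 ± 5.17 RPKM and 185 ± 0.6 RPKM. The mean sum went from 400 to 431 RPKM for the squalene and sterol steps and from 410 to 435 RPKM for the fatty acid genes. Over all 32 genes it went from 1230 to 1320 RPKM. FDPS, IDI1 and GGPS1 weigh most in the mevalonate sum, and 4 of its 8 genes were higher and 2 lower. The sums were not repeated without the TMM scaling, so whether the small mevalonate fall depends on it was not tested.

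Ratios of a pair of genes within a library do not depend on how the library was scaled, and 6 were compared. The INSIG1 to INSIG2 ratio read 5.28, 5.19, 5.15 and 5.24 in control and 7.60, 7.87, 7.87 and 7.78 in SB-treated libraries. The groups did not overlap, and control replicate 1 lay with the other controls. The log2 difference was 0.58, the same without that replicate, and the two-sided exact permutation p was 0.0286, the smallest that 4 against 4 can give. After Benjamini-Hochberg adjustment over the 6 ratios the p was 0.143 for each of them, so no ratio passed.

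The TM7SF2 to LBR ratio, of the paired reductases, was 0.0752 ± 0.0136 in control and 0.0532 ± 0.00254 in SB-treated libraries (SD, n = 4 each; exact permutation p = 0.0571). Control replicate 1, at 0.055, was the only control within the SB-treated range of 0.0508 to 0.0566, and the log2 difference of -0.48 was -0.62 without it. The FADS2 to FADS1 ratio was 0.284 ± 0.0355 and 0.234 ± 0.0059 (SD, n = 4 each; exact permutation p = 0.0857). Its log2 difference of -0.27 was -0.37 without control replicate 1. The ratios of SREBF1 to SREBF2, FASN to ACACA and FDFT1 to GGPS1 had log2 differences of -0.13, 0.19 and -0.12, all with overlapping groups. The difference for FASN to ACACA was 0.09 without control replicate 1, and without control replicate 3 that for SREBF1 to SREBF2 was -0.08.

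**Figure D4:**
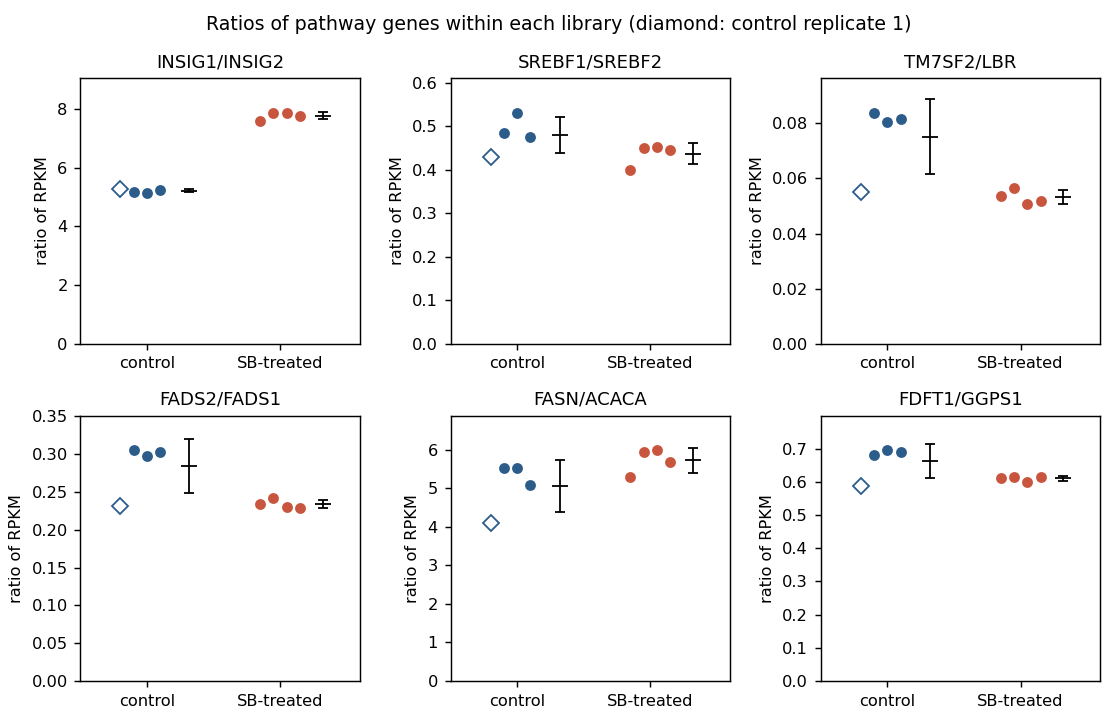
Ratio of the RPKM of 2 genes within each library for 6 pairs, with control libraries in blue (control replicate 1 as an open diamond) and SB-treated libraries in red, and the mean and SD of each group beside the points. The INSIG1 to INSIG2 ratio separates, with controls between 5.15 and 5.28 and SB-treated libraries between 7.60 and 7.87.

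Other genes of the pathway were counted from 4 lists. Of 12 genes for SREBP processing and sterol sensing, 4 were higher and 5 lower, and the median log2 fold change was 0.04. Without control replicate 1, 6 were higher and 5 lower, and the same counts were found with the replicate number as a block. The rises with the largest values were in SYVN1, a ubiquitin ligase of the endoplasmic reticulum (0.39, limma adjusted p = 2.87e-04), and MBTPS1, the Golgi protease that makes the first cut in SREBP precursors (0.31, limma adjusted p = 2.22e-05). The largest fall was in PGRMC1, a membrane haem-binding protein that associates with INSIG and SCAP (-0.54, limma adjusted p = 5.81e-06). MBTPS2, the protease of the second cut, which was named after its value was seen, fell by 0.30.

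Of 17 genes for acetyl-CoA, NADPH and lipogenesis, 5 were higher and 8 lower, with a median of -0.05. SLC25A1, the mitochondrial citrate carrier that exports carbon for lipid synthesis, fell from 67.2 ± 7.77 RPKM to 41.3 ± 1.98 RPKM (SD, n = 4 each; log2 fold change -0.68, limma adjusted p = 5.41e-05). ACSL3, an acyl-CoA synthetase, fell by 0.33 (limma adjusted p = 0.00469). Without control replicate 1 the log2 fold changes were -0.77 for SLC25A1 and -0.24 for ACSL3. Upward, FADS3, of the same cluster as FADS1 and FADS2, rose by 0.75 (limma adjusted p = 5.16e-06) and LPIN1, a phosphatidate phosphatase, by 0.72 (limma adjusted p = 9.25e-07).

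Of 23 genes for sterol transport, esterification and oxysterol response, 20 have a row, of which 7 were higher and 8 lower, with a median of 0.00. NPC1, which moves cholesterol out of lysosomes, rose by 0.46 (limma adjusted p = 2.39e-05) and STARD3, a sterol carrier of late endosomes, by 0.45 (limma adjusted p = 1.50e-05). NR1H3, the oxysterol receptor LXR alpha, fell from 6.02 ± 0.654 RPKM to 3.21 ± 0.127 RPKM (SD, n = 4 each; log2 fold change -0.73, limma adjusted p = 9.86e-06), and STARD5 fell by 0.41 (limma adjusted p = 3.51e-04). ABCA1 and ABCG1, which export cholesterol, fell by 0.17 and 0.25 (limma adjusted p = 0.00531 and 6.17e-04). Both were named after their values were seen, and a link to the fall of NR1H3 was not tested. ABCA1 went from 0.469 ± 0.0661 RPKM to 0.308 ± 0.03 RPKM and ABCG1 from 1.59 ± 0.134 RPKM to 1.17 ± 0.0582 RPKM (SD, n = 4 each). The log2(RPKM + 1) scale understates changes at such levels, which in RPKM were -34.3% for ABCA1 and -26.5% for ABCG1.

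Of 16 genes of the non-sterol isoprenoid branch, 4 were higher and 7 lower, with a median of -0.06. TRIT1, which adds an isopentenyl group to transfer RNA, fell by 0.48 (limma adjusted p = 3.12e-05) and RABGGTB, a subunit of the enzyme that prenylates Rab proteins, by 0.47 (limma adjusted p = 1.37e-04). RCE1 and ICMT, which trim and methylate prenylated proteins, rose by 0.23 (limma adjusted p = 0.0293) and 0.22 (limma adjusted p = 5.36e-04). The RCE1 call was lost without SB-treated replicate 2, 3 or 4, with values between 0.20 and 0.23 and adjusted p-values between 0.0601 and 0.0811, and without control replicate 1 it was 0.14. The 4 lists held between 25.0% and 35.0% of genes that were higher and between 40.0% and 47.1% that were lower, against 33% and 32.6% over all genes.

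**Figure D5:**
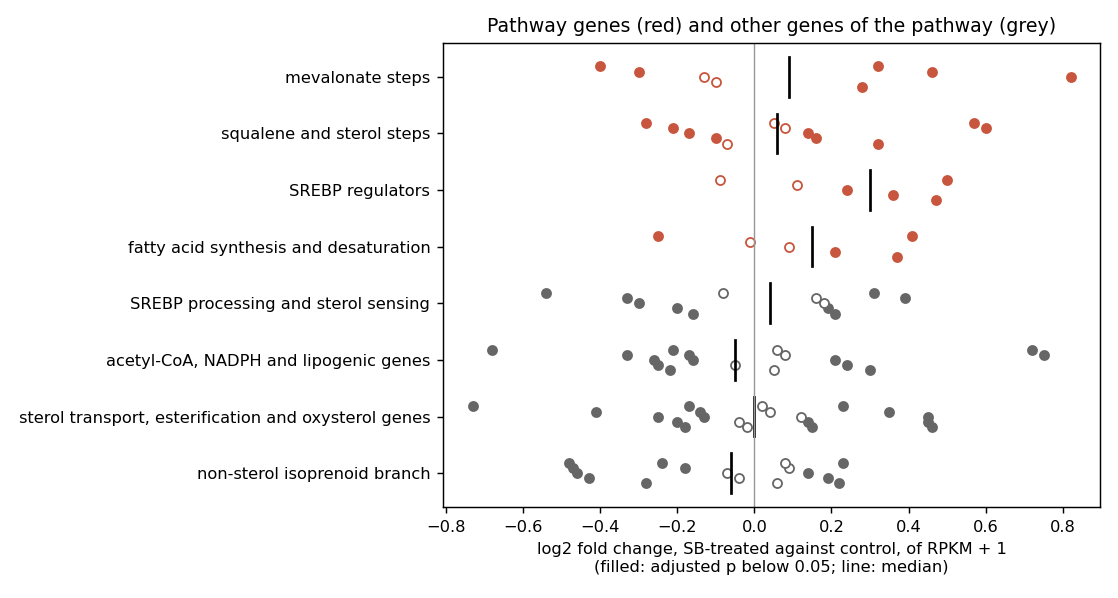
Log2 fold change of RPKM + 1, SB-treated against control, of each gene in the 4 roles of the 32 pathway genes (red) and in the 4 lists of other genes (grey), with filled points for an adjusted p-value below 0.05 and a black line for each median. The group of SREBP regulators, which includes SREBF1, SREBF2 and STARD4, has the highest median at 0.30. The medians of the lists of other genes lie between -0.06 and 0.04.

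The scaling of the libraries bears on the smaller values. The deposited RPKM use TMM factors of 0.956 to 0.968 for control and 1.03 to 1.04 for SB-treated libraries. Without them the median log2 ratio of all genes moved from 0.00 to 0.11, and 65.1% of the called genes were higher, against 50.2%. Of the 32 genes, 18 were then higher and 4 lower, where 43% of all genes were higher and 23.1% lower, with ACAT2, FDPS, FDFT1 and TM7SF2 the 4 that were lower. HMGCS1 was at 0.91, DHCR7 at 0.70, LSS at 0.67, SREBF2 at 0.60 and INSIG1 at 0.57 on that scale, all called higher. Removing the factors raises every SB-treated value relative to control, so for genes that rose it was no test of direction.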

How the data were processed

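RNA was measured in 4 control and 4 SB-treated libraries from cells labelled HepG2. According to the study's methods, libraries were made with a stranded total RNA kit and sequenced as 50-base single reads, mapped to hg38 with TopHat 2.1.0 and counted per gene with featureCounts 1.5.0. The study kept genes that passed 1 CPM in 2 or more samples and scaled the libraries by TMM in edgeR 3.16.5. The authors deposited RPKM values per gene and library, which are the values compared here. The table also holds a mean log2 CPM per gene, deposited by the authors and used here to recover gene lengths, and the authors' own fold changes, p-values and FDR, which were not used.

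Whole reads (within 0.01 reads) were recovered for 99.79% of genes. This gave the depth of 37010925 to 44903333 reads per library and the values without TMM factors. Counting error is small at this depth, and the number of libraries limits the precision. A chi-square comparison of reads, divided by its degrees of freedom, gave 33.4 to 38.5 for control replicate 1 against the other controls, and 1.52 to 3.81 for the other pairs within a group. No pair of libraries was within sampling noise.

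Groups were taken from the sample labels. They were compared with limma 3.58.1 (lmFit, eBayes) in R 4.3.3 on log2(RPKM + 1), with a pseudocount of 1, no further filter and Benjamini-Hochberg adjustment over 14526 genes. A gene was called at an adjusted p-value below 0.05. Ratios were compared with a two-sided exact permutation test of 4 against 4. The scripts were tested on simulated data. The 32 genes, the lists of other pathway genes, the markers and the tests were chosen with earlier results of these data known. All 32 genes are named, with up to 2 genes of the largest and 2 of the lowest log2 fold change among the called genes of each list. Of the genes these rules name, 2 are not reported here. Alternatives were a pseudocount of 0.1, a minimum of 10 reads per library, library sizes without TMM, a block for the replicate number, limma voom on the recovered reads, RPKM + 1 in the ratios, and leaving out each library. Gene positions, overlaps and promoters are from RefSeq (GRCh38.p14), and GC content is from GENCODE transcripts. ChIP-seq data were not analysed here.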

Additional observations from a re-analysis of the deposited data

Results flagged for a closer look

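Of 108 groups of 4 values examined, from the pathway genes, the named genes of the other lists and the ratios, 27 had a highest or lowest library whose gap to the nearest other value took up more of the group's range than Dixon's test allows at 95%. Chance flags about 1 in 20 groups, or 5.4 here. The groups come from the same 8 libraries and the ratios reuse pathway genes, so the groups are not separate trials. The library that lay apart was control replicate 1 in 21 of the 27, SB-treated replicate 2 in 3, SB-treated replicate 1 in 2 and control replicate 3 in 1.

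Control replicate 1 was high among the controls, with a gap as a share of the range of 0.839 for HMGCS1, 0.853 for IDI1, 0.892 for SQLE, 0.911 for LBR, 0.922 for SC5D, 0.943 for INSIG1, 0.873 for INSIG2, 0.846 for STARD4, 0.906 for ACSL3 and 0.918 for RABGGTB. It was low, with a share of 0.905 for TM7SF2, 0.872 for SREBF1, 0.874 for SCAP, 0.885 for FASN, 0.933 for SLC25A1, 0.893 for NPC1, 0.848 for NR1H3 and 0.944 for RCE1. It was also low in the ratios of TM7SF2 to LBR (0.909), FADS2 to FADS1 (0.904) and FDFT1 to GGPS1 (0.874). Control replicate 3 was the low value for FADS1 (0.851).

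Among the SB-treated libraries, replicate 2 was low for SQLE (0.84), CYP51A1 (0.873) and RABGGTB (0.84). SB-treated replicate 1 was high for STARD5 (0.849) and low in the ratio of SREBF1 to SREBF2 (0.878).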

How the results depend on the processing

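Of the 23 called pathway genes, 17 kept their direction and their call under all 13 alternatives, HMGCS1, DHCR7, LSS, SREBF2, INSIG1, ACAT2 and FDPS among them. The other called genes were MVD, CYP51A1, LBR, MSMO1, EBP and ELOVL6. All 32 genes passed the minimum of 10 reads, so that alternative left their log2 fold changes as they were. Library sizes without TMM factors moved the most values. The construction of that setting raises every SB-treated value relative to control, so for genes that rose it was no test of direction. Under it the number of pathway genes that were lower was 4 in place of 7 (over all genes 3357 in place of 4740), and the number higher by at least 0.5 was 7 in place of 4. The genes that were lower became 3 in place of 5 for SREBP processing, 5 in place of 8 for the lipogenic list and 5 in place of 8 for sterol transport. Over all genes, 1214 were then higher by at least 0.5 and 416 lower, against 744 and 792. The log2 fold change changed sign to 0.0030 for GGPS1, 0.0048 for CYP51A1, 0.0210 for HSD17B7, 0.0059 for INSIG2 and 0.0955 for SCD, and EBP and ELOVL6 lost their call. Over all genes, the number higher by at least 0.5 was 1609 with a pseudocount of 0.1 and 1820 with voom, and among the 32 genes it was 5 with either. Without TMM factors 6 of the SREBP processing genes were higher, and 5 with voom, in place of 4. When each library was left out in turn, SCAP lay between -0.0027 (without control replicate 1, a change of sign) and 0.1574, and SCD between -0.0213 and 0.0064 (without control replicate 4, a change of sign). The causes of these sign changes were not tested. Deviations from the group means of same-numbered replicates had correlations of 0.38, 0.327, 0.173 and -0.16 for replicates 1 to 4. The study's methods name no pairing, so the main comparison used the group only. Whether same-numbered libraries share a source of spread was not tested. With the replicate number as a block, 16 pathway genes were higher and 7 lower, and over all genes 4885 were higher and 4894 lower. The block, voom and the minimum of 10 reads, which 14502 genes passed, changed no call among the 32 genes. Read depth does not limit these genes, whose lowest count in a library was 339.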
